A study of Mus musculus with 30 samples.

Results

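The transcripts of 43 DNA replication genes were followed through the neonatal mouse thymic stroma. The 43 were chosen by gene name from a list of replication proteins and their suppliers, out of 18847 genes in the deposited table, and all 43 reached 1 FPKM (fragments per kilobase of transcript, scaled to the fragments of a library) in at least 2 libraries and were tested. The study compared newborn B6.SJL mice of mixed sex that had been injected on postnatal day 1 with aflibercept, a soluble decoy receptor that binds vascular endothelial growth factor (VEGF) and is called Trap here, with mice given hFC antibodies (control). Thymi were collected on postnatal day 3 and 5 stromal populations lacking CD45 were sorted. Endothelium was EpCAM-negative and CD31+, the mesenchymal populations were EpCAM- and CD31-negative and either CD146+ or CD140a+, cortical thymic epithelial cells (cTEC) were EpCAM+ Ly51+, and medullary ones (mTEC) were EpCAM+ with low or no Ly51. Each population had 4 Trap and 2 control libraries, 30 in all. The labels give no number of animals for a library, so the p-values measure the spread between libraries, which may be technical.

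A cell copies its genome once per division. Before S phase, the origin recognition complex with Cdc6 and Cdt1 loads the ring of MCM helicase subunits onto origins, a step called licensing. At S phase Cdc45 and the GINS complex turn that ring into an active helicase, the polymerase alpha-primase complex lays down primers, and the polymerases delta and epsilon extend them on the sliding clamp PCNA. Many of these genes are targets of E2F transcription factors, which are held back by retinoblastoma family proteins until a cell commits to divide, so their transcripts are widely read as a mark of cycling cells.

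The sorted populations carried the markers of their labels. Summed over 9 endothelial markers, the level was 1415 to 1561 FPKM in endothelium and at most 38.4 FPKM in the other populations. The 7 mural markers summed to 4753 to 6205 FPKM in CD146 mesenchyme, the 7 fibroblast markers to 4661 to 6600 FPKM in CD140a mesenchyme, and the 11 epithelial markers to 1616 to 2806 FPKM in epithelium. Mural markers also reached 508 to 760 FPKM in mTEC and 169 to 213 FPKM in endothelium, and fibroblast markers 271 to 420 FPKM in CD146 mesenchyme. Erythroid markers (6 genes) summed to 15.7 to 119 FPKM in endothelium and at most 41.7 FPKM elsewhere. Markers of thymocytes (15 genes) reached 70.4 to 176 FPKM in cTEC and at most 16.4 FPKM elsewhere, and markers of macrophages (6 genes) reached 237 to 376 FPKM in mTEC, of which Lyz2 alone gave 207 to 342 FPKM. The endothelial library Trap 2 stood apart, with 100.4 FPKM of epithelial markers, of which 8 of 11 reached 1 FPKM and Aire was listed at 0, against 5.83 to 18.9 FPKM in the other 5 endothelial libraries. Read counts were not analysed here, so the depth behind each FPKM value is unknown.

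Promoter windows from RefSeq (GRCm38.p6), 250 bases before to 50 after a transcript start, were found for 36 of the 43 genes. They were searched on both strands for the E2F element TTTNNCGC, with each N a G or a C. It lay in 14 of the 36 genes (38.9%), against 704 of 27025 genes with such a window (2.6%). The pentamer CCAAT lay in 63.9% of the 36 and in 41.1% of all genes. The cell cycle homology region, TTTGAA or TTCGAA, lay in 19.4% and 21.7%. These are matches of letters and not sites shown to be bound. Of the 13 genes that were lower in endothelium with Trap, 11 had a window and 5 of the 11 (45.5%) held the E2F element, and so did 9 of 25 (36.0%) among the members that did not pass there. Where a gene has several windows, 1 match in any of them was counted, and the window with the match is printed. The windows of those 5 genes are shown so that the element can be read in genes that fell, beside the window of Rrm2, which fell and held no match. Capitals mark the E2F element or, where it lies on the other strand, its reverse complement.

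The windows are chr1:20820263-20820562 on the minus strand (Mcm3), chr5:138171834-138172133 on the minus strand (Mcm7, the upstream window of this gene), chr8:122567765-122568064 (Cdt1), chr7:13278576-13278875 (Lig1), chr17:56304063-56304362 (Uhrf1) and chr12:24708004-24708303 (Rrm2), the last 4 on the plus strand.
Mcm3: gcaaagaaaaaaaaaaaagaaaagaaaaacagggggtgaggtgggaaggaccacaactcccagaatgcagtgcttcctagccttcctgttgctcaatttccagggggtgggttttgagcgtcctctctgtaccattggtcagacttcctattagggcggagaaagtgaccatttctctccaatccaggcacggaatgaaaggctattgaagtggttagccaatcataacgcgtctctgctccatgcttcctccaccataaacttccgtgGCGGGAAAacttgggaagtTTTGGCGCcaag
Mcm7: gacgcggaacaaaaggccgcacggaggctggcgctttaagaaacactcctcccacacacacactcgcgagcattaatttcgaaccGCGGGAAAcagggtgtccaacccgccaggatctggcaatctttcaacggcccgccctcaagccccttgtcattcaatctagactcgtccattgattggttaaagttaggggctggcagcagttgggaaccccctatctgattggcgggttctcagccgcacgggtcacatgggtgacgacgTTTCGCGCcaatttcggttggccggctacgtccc
Cdt1: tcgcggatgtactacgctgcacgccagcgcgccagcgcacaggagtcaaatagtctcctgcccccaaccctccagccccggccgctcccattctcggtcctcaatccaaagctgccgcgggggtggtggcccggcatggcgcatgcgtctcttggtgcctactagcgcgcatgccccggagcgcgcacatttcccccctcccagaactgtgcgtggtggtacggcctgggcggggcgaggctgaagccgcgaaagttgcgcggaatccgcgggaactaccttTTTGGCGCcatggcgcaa
Lig1: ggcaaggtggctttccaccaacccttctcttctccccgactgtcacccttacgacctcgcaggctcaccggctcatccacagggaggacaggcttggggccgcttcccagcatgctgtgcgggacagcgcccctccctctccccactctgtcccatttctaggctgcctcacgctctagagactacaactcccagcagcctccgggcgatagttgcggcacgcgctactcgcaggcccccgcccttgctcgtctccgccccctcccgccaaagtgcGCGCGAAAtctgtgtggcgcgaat
Uhrf1: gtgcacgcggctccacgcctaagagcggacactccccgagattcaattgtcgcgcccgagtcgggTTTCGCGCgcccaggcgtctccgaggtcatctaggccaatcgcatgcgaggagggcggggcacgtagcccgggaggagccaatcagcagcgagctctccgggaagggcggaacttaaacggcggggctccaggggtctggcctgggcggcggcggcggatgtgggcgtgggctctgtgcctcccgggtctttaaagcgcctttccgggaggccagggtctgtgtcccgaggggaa
Rrm2: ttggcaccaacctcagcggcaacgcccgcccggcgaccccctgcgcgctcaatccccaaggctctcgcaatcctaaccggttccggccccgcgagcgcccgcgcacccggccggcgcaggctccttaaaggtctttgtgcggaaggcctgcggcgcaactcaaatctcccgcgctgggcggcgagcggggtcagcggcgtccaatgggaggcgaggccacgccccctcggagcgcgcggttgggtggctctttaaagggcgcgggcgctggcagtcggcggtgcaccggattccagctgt

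In Mcm3 both elements began after the start site, by 19 and 38 bases. In Mcm7 they began at positions -165 and 16 from the start site. The element of Cdt1 began 32 bases and that of Lig1 26 bases after the start, and that of Uhrf1 at position -185, before it.

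Trap against control in endothelium asks whether withdrawal of VEGF for 2 days alters the replication transcripts of the cells that carry the VEGF receptors. Of the 43 genes, 13 fell and 0 rose (limma adjusted p under 0.05 over all genes tested), against 1.42% of all genes lower and 0.323% higher. Among genes with a mean of at least 1 FPKM over the endothelial libraries, 1.78% were lower. In all, 39 of the 43 lay below 0, with a median log2 difference of -0.78, against -0.02 over all genes. Differences are on the scale of log2(FPKM + 1), Trap minus control, and understate changes of low genes. The 4 Trap libraries lay below both controls for 18 members and above both for 0, against 9.48% and 5.36% of all genes. In a sorted bulk library, fewer cells that carry a transcript and less of it per cell cannot be told apart.

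**Figure D1:**
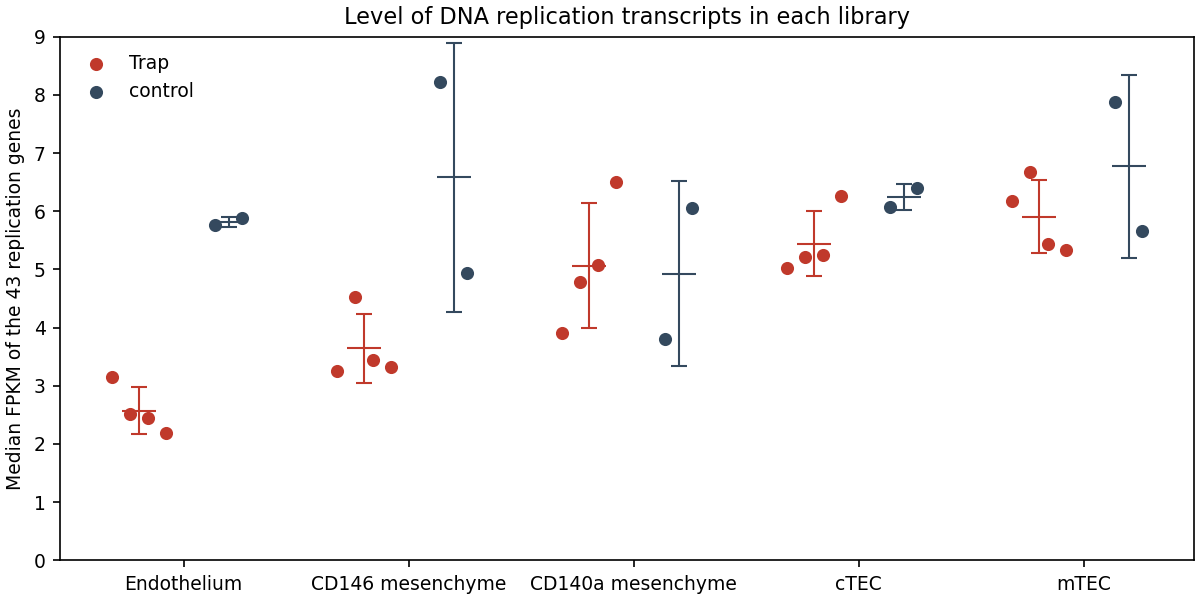
Median FPKM of the 43 replication genes in each library, by population, with Trap libraries left of controls; points are libraries, and bars give the mean and SD of the libraries. The 4 endothelial Trap libraries sit between 2.18 and 3.15 FPKM, below both controls at 5.76 and 5.88 FPKM, while in CD140a mesenchyme, cTEC and mTEC the groups overlap.

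The median FPKM of the 43 genes was 3.15, 2.51, 2.45 and 2.18 in the endothelial Trap libraries, against 5.76 and 5.88 in the controls. Every Trap library lay below both controls. Members under 1 FPKM numbered 9, 10, 6 and 15 in the Trap libraries and 2 in each control. Over all genes, 10298 to 11228 reached 1 FPKM in the Trap libraries and 11163 to 11304 in the controls, and the part of this difference in the members' values was not tested.

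Among the 10 licensing genes all lay below 0 and 4 fell. Cdt1, which brings the MCM ring to the origin, was at 2.69, 0.26, 0.24 and 0.23 FPKM in the Trap libraries, against 6.02 and 5.66 FPKM in the controls. The Trap libraries lay below the controls without overlap, and Trap 1 lay above the other 3. The log2 difference was -2.07 ± 0.42 (SE; limma adjusted p = 0.0120).

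The helicase subunit genes Mcm4, Mcm7 and Mcm3 also fell. Mcm4 was at 5.37, 5.74, 5.56 and 3.12 FPKM with Trap, against 15.5 and 10.2 FPKM in controls (-1.22 ± 0.23, limma adjusted p = 0.00517). Mcm7 was at 7.07, 3.99, 9.73 and 6 FPKM with Trap, against 25.1 and 13 FPKM (-1.37 ± 0.28, limma adjusted p = 0.0131). Mcm3 was at 8.66, 7.28, 6.21 and 3.90 FPKM with Trap, against 13.5 and 12.2 FPKM (-0.92 ± 0.23, limma adjusted p = 0.0322). The groups did not overlap for any of these 3. Mcm2 and Mcm5, from the same ring, also lay below both controls in every Trap library (-0.95 ± 0.33 and -0.93 ± 0.30) without passing the test, and the Trap and control libraries of Mcm6 overlapped (-0.55 ± 0.29).

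The genes of the origin recognition complex and Cdc6 did not pass. Orc6 was at 13.5 ± 8.26 FPKM with Trap (SD, n = 4) and 18.4 ± 10.1 FPKM in controls (SD, n = 2). Orc1 was at 4.59, 20.1, 5.75 and 2.40 FPKM with Trap, against 6.15 and 7.36 FPKM, and Cdc6 at 0.86, 6.96, 1.02 and 0.36 FPKM, against 3.67 and 1.57 FPKM. For both, the library that carried epithelial markers, Trap 2, held the highest value of the 6. Its Orc1 level was above every epithelial library (2.72 to 8.83 FPKM), and the part of the epithelial markers in these values was not tested.

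Of the 6 helicase activation genes 2 fell. Gins1, a subunit of the GINS complex, was at 0.18, 0, 0.05 and 0 FPKM with Trap, against 4.26 and 5.88 FPKM in controls. It was near or at 0 in every Trap library and above 4 FPKM in both controls (-2.51 ± 0.41, limma adjusted p = 0.00223). The other GINS subunit genes did not share this pattern: Gins2 was at 2.00, 7.57, 2.89 and 0.13 FPKM with Trap, against 4.13 and 5.37 FPKM, and Gins3 at 0.14, 4.33, 0.41 and 0.26 FPKM, against 3.49 and 1.19 FPKM. Gins4 averaged 16.2 ± 7 FPKM with Trap (SD, n = 4) and 12.9 ± 5.64 FPKM in controls (SD, n = 2). For all 3 the highest endothelial value was again that of Trap 2. They overlapped between the groups and did not pass (-0.81 ± 0.58, -0.79 ± 0.52 and 0.29 ± 0.33). Mcm10, which helps to start the helicase, was at 1.02, 0.43, 0.87 and 0.65 FPKM with Trap, against 2.21 and 2.69 FPKM (-0.99 ± 0.25, limma adjusted p = 0.0374).

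Of the 4 primer synthesis genes only Prim1 passed, which encodes the catalytic primase subunit. It was at 0.42, 0.01, 1.16 and 1.15 FPKM with Trap, against 2.88 and 3.93 FPKM in controls (-1.44 ± 0.36, limma adjusted p = 0.0346). Pola1, the catalytic subunit of polymerase alpha, lay below both controls in every Trap library at 3.15, 1.88, 1.59 and 0.59 FPKM, against 3.49 and 4.70 FPKM, without passing (-0.93 ± 0.30). The accessory subunit Pola2 stood at 12.9 ± 3.68 FPKM with Trap (SD, n = 4) and 14.0 ± 4.57 FPKM in controls (SD, n = 2).

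The sliding clamp gene Pcna was the most abundant member per length. It was at 69.0, 57.1, 69.6 and 52.8 FPKM with Trap, against 127 and 107 FPKM in controls (-0.91 ± 0.15, limma adjusted p = 0.00223). The Trap libraries were tight and lay well below both controls. The 5 clamp loader genes did not pass: Rfc1 stood at 6.05, 7.40, 6.01 and 6.01 FPKM with Trap, against 5.76 and 6.15 FPKM (0.08 ± 0.22), while Rfc2 to Rfc5 lay between -0.77 and -0.51. Pseudogenes named Pcna-ps1, Pcna-ps2 and Tyms-ps are annotated, and whether reads were shared with them is not given in the sources used here.

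Rpa3, the small subunit of the single-strand binding protein, was at 3.95, 0.39, 1.23 and 2.18 FPKM with Trap, against 14.7 and 10.7 FPKM in controls (-2.36 ± 0.43, limma adjusted p = 0.00502). The partner subunits Rpa1 and Rpa2 overlapped between the groups (-0.53 ± 0.31 and -0.80 ± 0.32). None of the 4 replicative polymerase genes passed, and Pold1 and Pold2 lay near 0 (0.18 ± 0.34 and -0.18 ± 0.32).

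Lig1, the ligase that joins Okazaki fragments, was at 3.73, 6.04, 2.85 and 2.18 FPKM with Trap, against 11.8 and 12.7 FPKM in controls (-1.56 ± 0.39, limma adjusted p = 0.0341). Fen1, the flap nuclease that prepares the same ends, was listed at 0 in all 6 endothelial libraries and reached 1 FPKM in only 2 of the 30 libraries, at 1.25 and 1.2 FPKM. In GENCODE M21, 84.2% of its exon bases are shared with other genes, as are 67.3% for Gins2 and 52.5% for Chaf1a, so the values of these 3 are uncertain.

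Both subunits of ribonucleotide reductase, which makes the deoxynucleotides, fell. Rrm2, the subunit made in S phase, was at 2.46, 2.65, 3.56 and 2.32 FPKM with Trap, against 11.7 and 15.8 FPKM in controls (-1.98 ± 0.36, limma adjusted p = 0.00479). Rrm1 was at 2.53, 1.89, 2.40 and 1.17 FPKM with Trap, against 7.18 and 8.09 FPKM (-1.55 ± 0.32, limma adjusted p = 0.0127). For both, the 4 Trap libraries lay close together and below the controls. Tyms, Tk1 and Dut, which make or guard thymidine nucleotides, overlapped between the groups (-0.58 ± 0.35, -0.78 ± 0.31 and -0.37 ± 0.50).

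Uhrf1, which carries DNA methylation through replication, was at 0.91, 1.72, 1.02 and 1.59 FPKM with Trap, against 4.23 and 5.84 FPKM in controls (-1.39 ± 0.32, limma adjusted p = 0.0221). Chaf1a, the large subunit of the histone chaperone CAF-1, lay below both controls in every Trap library without passing (-0.96 ± 0.28), and Chaf1b overlapped (-0.41 ± 0.32).

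**Figure D2:**
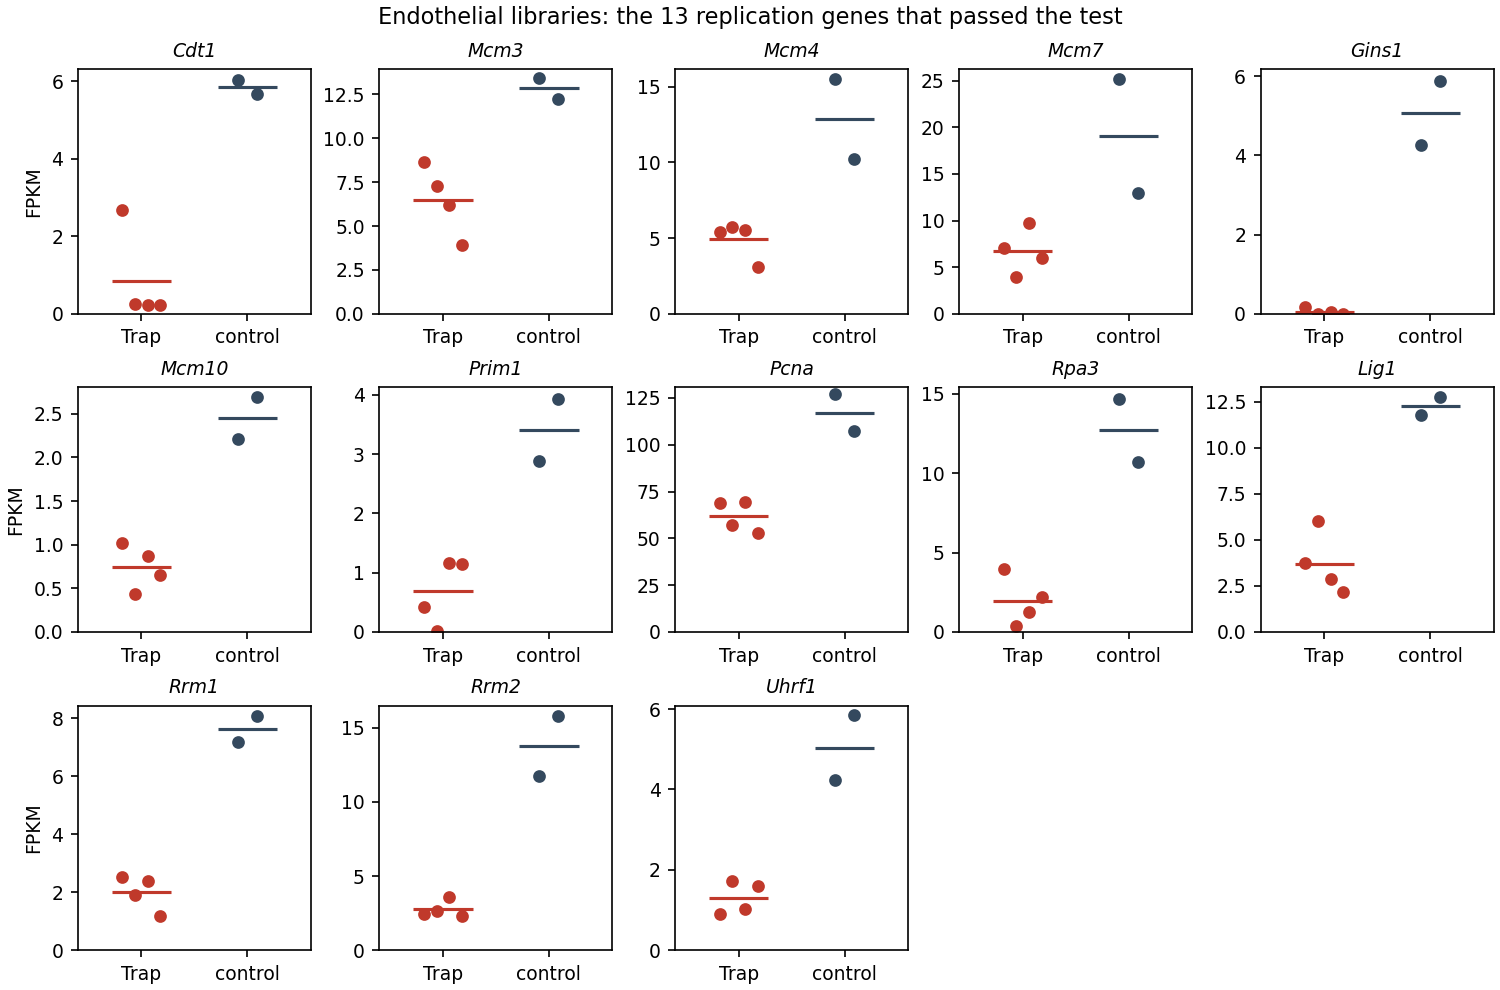
FPKM in each endothelial library of the 13 replication genes that fell with Trap, one panel for a gene, Trap left of control; points are libraries, lines are group means, and each axis starts at 0. In all 13 panels the 4 Trap libraries lie below both controls; Gins1 is at 0 to 0.18 FPKM with Trap, against 4.26 and 5.88 FPKM.

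The endothelial count leaned on single controls and on how the spread was estimated. It was 2 (Gins1 and Rrm2) without control 1 and 7 without control 2, and 0 both with 1 variance weight per population (17 at an unadjusted p under 0.05, with 0.0791% of all genes lower) and in limma on the 6 endothelial libraries alone (14 at an unadjusted p under 0.05), a fit in which 0 of all genes passed. Without the library with epithelial markers, Trap 2, 11 passed, and Mcm10 and Prim1 did not. The weight of endothelium was the lowest, at 0.573, against 0.794 in mTEC to 1.66 in cTEC. A lower weight stands for a larger spread between libraries. The errors and adjusted p-values printed above for endothelium assume an equal spread in all populations.

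Of 39 further replication genes tested in endothelium, 7 fell and 0 rose, and 33 lay below 0, with a median of -0.57. None of the 7 passed with 1 weight per population (16 of the 39 were lower at an unadjusted p under 0.05 in limma without it). They included Dnmt1, the maintenance methyltransferase (-1.36 ± 0.23, limma adjusted p = 0.00354), the histone chaperone gene Nasp (-0.80 ± 0.14), the checkpoint mediator gene Clspn (-1.51 ± 0.33) and the polymerase epsilon subunit gene Pole4 (-1.30 ± 0.29).

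Of 18 genes of E2F factors and S phase entry, 1 fell, E2f2, an activating E2F (-1.82 ± 0.30, limma adjusted p = 0.00223). Of 22 mitosis genes taken for comparison, 8 fell, led by Kif11, a spindle motor (-2.23 ± 0.25), Tpx2 (-2.28 ± 0.40), Cenpe (-2.03 ± 0.36) and Bub1 (-1.61 ± 0.34). The mitosis median of -1.22 lay below that of the replication genes. With 1 weight per population, 0 of the E2F and S phase entry genes and 1 mitosis gene passed.

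The difference of Trap changes, endothelium against the mean of the other 4 populations, was tested directly. Gins1 (-2.47 ± 0.46, limma adjusted p = 0.0145) and Rrm2 (-1.94 ± 0.40, limma adjusted p = 0.0283) passed, both with a lower Trap difference in endothelium, and 0 members passed the other way. Of all genes, 0.231% passed in that direction and 0.0487% in the other. In the other populations Gins1 ranged from -0.72 ± 0.41 in mTEC to 0.43 ± 0.41 in CD146 mesenchyme, and Rrm2 from -0.66 ± 0.36 in CD146 mesenchyme to 0.38 ± 0.36 in CD140a mesenchyme. For the other 41 members a difference between endothelium and the rest was not shown. With 1 weight per population 0 passed in limma (11 at an unadjusted p under 0.05, with 0.0304% of all genes passing), and Gins1 alone passed under quantile normalization and without endothelial control 1, endothelial Trap 4 or CD140a control 1.

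In CD146 mesenchyme, which carried the mural markers, 1 of the 43 genes fell and 0 rose, against 0.0122% of all genes lower and 0.00609% higher. Mcm3 was at 2.59, 5.08, 3.22 and 3.42 FPKM in the Trap libraries, against 10.7 and 10.1 FPKM in the controls. All 4 Trap libraries lay at or below 5.08 FPKM and both controls above 10 FPKM (-1.35 ± 0.23, limma adjusted p = 0.0240).

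The other members leaned the same way without passing. In all, 40 of 43 lay below 0, with a median of -0.46, against 0 over all genes. The Trap libraries lay below both controls for 15 members and above both for 0, against 6.84% and 5.8% of all genes. All 3 single-strand binding genes were among the 15: Rpa3 stood at 2.50 ± 1.88 FPKM with Trap (SD, n = 4) and 7.49 ± 1.03 FPKM in controls (SD, n = 2), and Rpa2 at 2.96 ± 0.766 and 7.23 ± 1.44 FPKM. Chaf1a was at 1.35, 1.03, 1.99 and 1.99 FPKM with Trap, against 4.68 and 4.85 FPKM (-1.17 ± 0.28). Cdc45, which joins the helicase at S phase, was at 2.83, 4.47, 2.39 and 2.77 FPKM, against 10.01 and 6.13 FPKM (-1.13 ± 0.35).

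The controls differed between themselves: the members' median was 8.22 FPKM in control 1 and 4.94 FPKM in control 2, while the 4 Trap libraries lay at 3.26, 4.53, 3.45 and 3.32 FPKM. The call of Mcm3 was lost without control 1, control 2, Trap 1 or Trap 3, which left 0 members called, and in limma on the 6 libraries alone, where 0 of all genes passed (13 members at an unadjusted p under 0.05). It was also lost with the replicate number fitted as a block.

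In CD140a mesenchyme 0 of 43 genes passed in limma and 1 had an unadjusted p under 0.05, as 0% of all genes passed in either direction. The median of the members was -0.05, against 0 over all genes, with 25 members below 0 and 18 above. The Trap libraries lay below both controls for 4 members and above both for 1, against 6.79% and 5.14% of all genes. Mcm2 was at 2.22, 2.75, 3.45 and 3.36 FPKM with Trap, against 1.56 and 1.53 FPKM in controls, and was the only member with every Trap library above both controls (0.62 ± 0.33). Rpa3 was at 6.75, 6.32, 5.32 and 11.7 FPKM with Trap, against 12.5 and 13.9 FPKM (-0.79 ± 0.43). The smallest p was that of Fen1, at 0, 0, 0 and 0 FPKM with Trap, against 0 and 1.25 FPKM (-0.58 ± 0.27), a difference that rested on 1 control library.

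In cTEC 0 of 43 genes passed in limma and 1 had an unadjusted p under 0.05, against 0.00609% of all genes called lower and 0% higher. The median was -0.27, against -0.005 over all genes, and 34 members lay below 0. The Trap libraries lay below both controls for 11 members and above both for 0, against 7.87% and 5.66% of all genes. Mcm3 was at 4.89, 4.11, 4.33 and 5.53 FPKM with Trap, against 8.44 and 6.73 FPKM in controls (-0.59 ± 0.23). Pold1, the catalytic subunit of polymerase delta, was at 1.43, 0.75, 1.40 and 1.83 FPKM, against 2.38 and 2.84 FPKM (-0.64 ± 0.34), and Pcna at 69.5, 67.6, 63.9 and 57.5 FPKM, against 72.4 and 84.3 FPKM (-0.27 ± 0.15). The sum of the thymocyte markers moved the other way, at 110 to 176 FPKM in the Trap libraries and 70.4 and 106 FPKM in the controls. Rag1 was the largest of them, at 32.6 to 50.6 FPKM with Trap and 21.4 and 30.8 FPKM in controls. Others overlapped between the groups, such as Cd3d, at 3.05 to 5.81 FPKM with Trap and 6.16 and 3.05 FPKM in controls. Of the 15 markers, 12 were at 1 FPKM or more in each Trap library, 12 and 14 in the controls, and none was listed at 0. Their part in the members' values was not tested.

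In mTEC 0 of 43 genes passed in limma and 2 had an unadjusted p under 0.05, against 0.323% of all genes lower and 0.0244% higher. The median was -0.14, against -0.04 over all genes. The groups lay apart for 2 members lower and 2 higher, against 8.4% and 5.06% of all genes. Pcna was at 82.7, 95.5, 72.1 and 74.2 FPKM with Trap, against 114 and 90.3 FPKM in controls (-0.33 ± 0.15). Mcm3 was at 9.04, 8.60, 10.5 and 8.97 FPKM, against 13.4 and 13.2 FPKM (-0.48 ± 0.23), and Gins1 at 5.57, 1.55, 2.56 and 7.63 FPKM, against 10.2 and 4.47 FPKM (-0.72 ± 0.41). Of these 3 only Mcm3 lay apart from the controls.

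**Figure D3:**
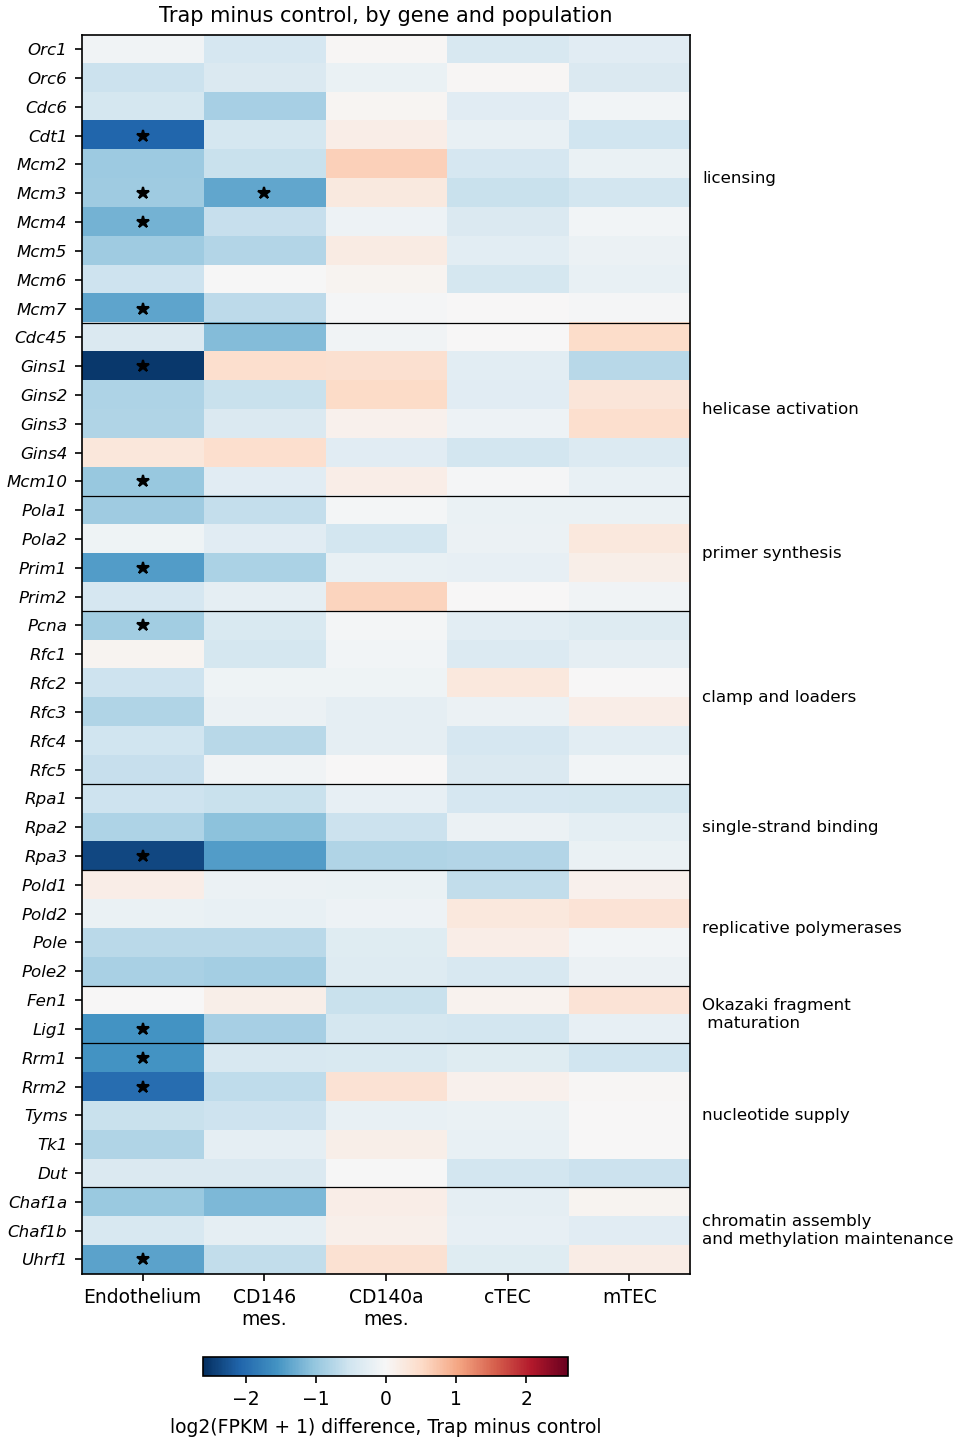
Difference in log2(FPKM + 1), Trap minus control, for the 43 genes (by role, top to bottom) in the 5 populations; blue is lower with Trap, red is higher, and a star marks a limma adjusted p under 0.05. Endothelium holds 13 stars and CD146 mesenchyme 1 (Mcm3); 39 and 40 of the 43 genes lie below 0 there, against 25 in CD140a mesenchyme.

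The Trap change averaged over the 5 populations lay below 0 for 41 of the 43 genes (median -0.32, against -0.03 over all genes). By the limma test 5 members fell with Trap and 0 rose, against 0.292% of all genes lower and 0.134% higher. The 5 were Mcm3 (-0.62 ± 0.10, limma adjusted p = 0.00565), Pcna (-0.39 ± 0.07, limma adjusted p = 0.00820), Rpa3 (-1.11 ± 0.19, limma adjusted p = 0.00872), Mcm4 (-0.48 ± 0.10, limma adjusted p = 0.0324) and Rrm1 (-0.64 ± 0.14, limma adjusted p = 0.0441). Mcm3 and Rpa3 lay below both controls in every Trap library in 4 of 5 populations, as 0.0852% of all genes did in at least 4. The exceptions were CD140a mesenchyme for Mcm3, where the libraries overlapped (0.25 ± 0.23), and mTEC for Rpa3 (-0.18 ± 0.43). Mcm4 and Pcna did so in 3 populations, as 0.95% of all genes did in at least 3.

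The endothelial change carries part of this mean, since it entered as 1 of 5 populations. The count was 3 (Mcm3, Pcna and Rpa3) after rescaling to TPM (transcript shares scaled to one total for every library) or without a trend in the variance, and also 3 without CD140a control 2, CD140a Trap 1, cTEC control 2, endothelial control 1 or mTEC control 1. None passed with the replicate number fitted as a block.

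**Figure D4:**
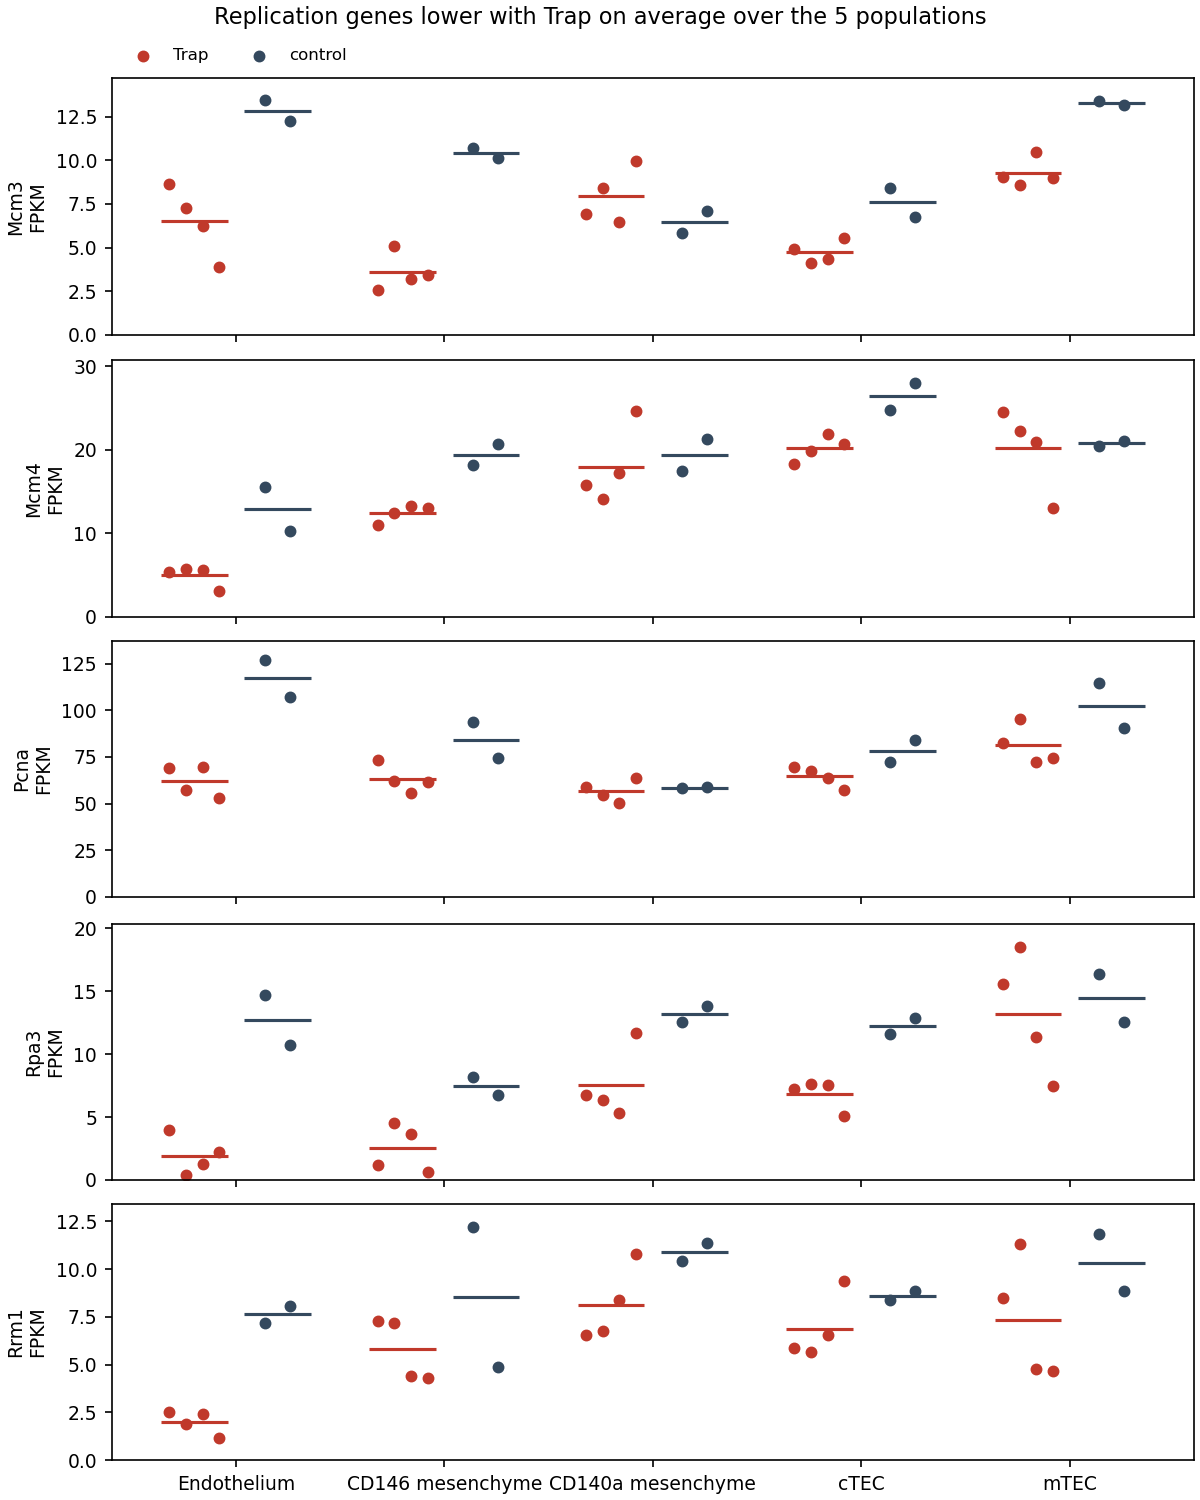
FPKM of Mcm3, Mcm4, Pcna, Rpa3 and Rrm1 in all 30 libraries by population, Trap left of control; points are libraries and lines are group means. Mcm3 lies below both controls in every Trap library in all populations but CD140a mesenchyme, and Rpa3 in all but mTEC.

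The level of the genes also differed between populations. As a plain mean over the 6 libraries of a population, of which 4 are Trap, the highest level lay in mTEC for 20 of the 43 and the lowest in endothelium for 24. In the Trap libraries alone these were 20 and 27, and in the controls alone 13 and 16. Over all genes, 12815 to 13661 reached 1 FPKM in the mTEC libraries and 10298 to 11304 in the endothelial ones. The share of all genes with such ranks was not counted. The tests that follow weight the means of Trap and control libraries equally. Against the mean of the other 4 populations, 19 were higher and 3 lower in mTEC, against 38.4% and 17.5% of all genes, so the share higher was close to that of all genes. The median difference of the members in mTEC was 0.35, against 0.19 over all genes. In endothelium 4 were higher and 20 lower, against 17.7% and 34.5% of all genes, with a median of -0.39, against -0.19 over all genes.

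**Figure D5:**
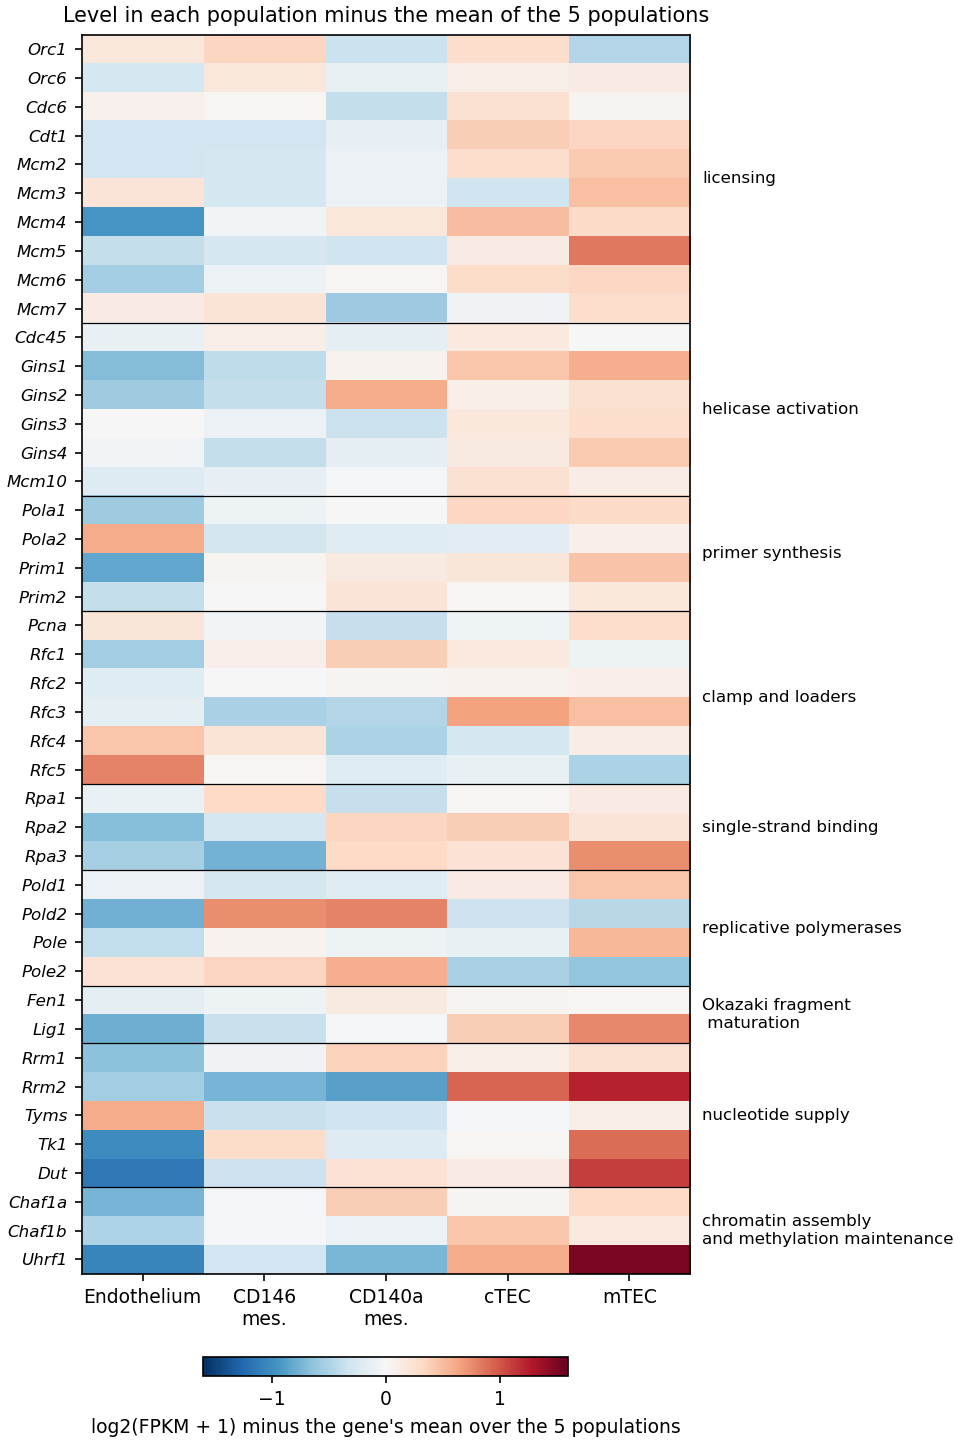
Level of the 43 genes in each population, as log2(FPKM + 1) minus the gene's mean over the 5 populations, with Trap and control groups weighted equally; red is above the mean and blue below. Uhrf1, Rrm2, Dut and Tk1 are highest in mTEC, Rfc5, Pola2 and Tyms in endothelium, and Pold2 in the mesenchymal populations.

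The largest differences in mTEC were those of Uhrf1 and of 3 of the 5 nucleotide supply genes, Rrm2, Dut and Tk1. Uhrf1 stood at 21.7 ± 4.68 FPKM in mTEC (SD, n = 6), with every mTEC library (16.4 to 29.3 FPKM) above every other, of which cTEC were the nearest at 7.01 to 12.8 FPKM (1.88 ± 0.18, limma adjusted p = 9.01e-10). Rrm2 stood at 25.8 ± 8.82 FPKM in mTEC and 20.1 ± 1.40 FPKM in cTEC (SD, n = 6 each), and the 12 epithelial libraries, at 16.5 FPKM or more, all lay above the 18 others, at 15.8 FPKM or less. Dut (1.39 ± 0.28) and Tk1 (1.12 ± 0.17) followed, at 22.7 ± 8.39 and 17.1 ± 3.84 FPKM. Rfc5, Pold2 and Pole2 were lower in mTEC than in the rest (-0.64 ± 0.17, -0.55 ± 0.18 and -0.79 ± 0.33). Of the macrophage markers, Lyz2 stood apart in the mTEC libraries at 207 to 342 FPKM, against at most 7.63 FPKM elsewhere. Itgam was at 4.01 to 33.1 FPKM, against at most 6.11 FPKM elsewhere. Adgre1 was at 0.04 to 3.55 FPKM, against at most 0.55 FPKM elsewhere. C1qa was at most 0.16 FPKM, Csf1r was at 1.25 to 3.37 FPKM, and Cd68, at 8.41 to 17.6 FPKM, was below every endothelial library. Their part in these levels was not tested.

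In cTEC 8 members were higher and 1 lower than in the rest, against 21.2% and 24.5% of all genes. Rrm2 (1.17 ± 0.20), Rfc3 (0.81 ± 0.26), Uhrf1 (0.75 ± 0.18) and Mcm4 (0.61 ± 0.13) differed most upwards, and Mcm3 was lower (-0.39 ± 0.13). In the Trap libraries alone 11 were higher and 1 lower, against 19.4% and 20.4% of all genes, and in the controls alone 0 passed in limma (3 at an unadjusted p under 0.05), against 13.1% and 13.9% of all genes. The count of 9 was 5 without cTEC control 1 and 4 without cTEC control 2. The cTEC libraries were also those with thymocyte markers, whose part in these levels was not tested. In cTEC against mTEC, 7 were lower and 0 higher, against 28.3% and 12.9% of all genes. Dut (-0.98 ± 0.35), Uhrf1 (-0.91 ± 0.23), Tk1 (-0.86 ± 0.22) and Mcm3 (-0.80 ± 0.16) differed most. Scaled by upper quartile, 4 were lower and 3 higher, after quantile normalization 5 and 5, and rescaled to TPM 4 and 1. Without cTEC control 1 the count of 7 was 4, and without mTEC control 1 it was 3. In the Trap libraries alone 5 were lower, against 24.2% of all genes, and in the controls alone 1, against 17.7%.

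Epithelium against mesenchyme gave 18 higher and 2 lower, against 38.9% and 21.2% of all genes. Rrm2 (1.89 ± 0.18), Uhrf1 (1.57 ± 0.16), Rfc3 (1.06 ± 0.23) and Mcm5 (0.78 ± 0.15) were higher in epithelium. Pold2 and Pole2, accessory subunits of polymerases delta and epsilon, went the other way (-1.15 ± 0.16 and -1.03 ± 0.29). Pold2 stood at 4.39 ± 0.979 FPKM in the cTEC libraries and at 4.03 ± 0.746 FPKM in those of mTEC, against 9.94 ± 3.03 FPKM in CD146 and 10.4 ± 2.88 FPKM in CD140a mesenchyme (SD, n = 6 each).

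The comparisons with epithelium depended on scaling. Scaled by upper quartile, the median of all genes in mTEC against the rest moved by -0.16, and by quantile normalization by -0.33. The counts in mTEC were then 10 higher and 4 lower, and 9 and 6, and in epithelium against mesenchyme 10 and 3, and 9 and 4. Rescaled to TPM, they were 10 and 4 in mTEC and 8 and 4 in epithelium. In mTEC 13 members passed without control 1 and 14 without control 2. In the Trap libraries alone 18 were higher and 1 lower in mTEC, against 35.3% and 15.3% of all genes, and in the controls alone 6 and 2, against 27.2% and 11%. For epithelium against mesenchyme these were 16 and 2 with Trap, against 35.6% and 19.7%, and 8 and 2 in controls, against 27.8% and 14.8%.

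In endothelium, Rfc5 (1.00 ± 0.17), Tyms (0.75 ± 0.19), Pola2 (0.74 ± 0.15) and Pcna (0.24 ± 0.08) were higher than in the other populations. Rfc5, a clamp loader subunit, stood at 17.8 ± 6.51 FPKM in endothelium (SD, n = 6), and CD146 mesenchyme came next at 10.3 ± 2.27 FPKM. Dut (-1.43 ± 0.28), Uhrf1 (-1.32 ± 0.18), Tk1 (-1.26 ± 0.17) and Mcm4 (-1.17 ± 0.13) differed most downwards.

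The endothelial counts differed between the control and the Trap libraries. In the control libraries alone 5 members were higher and 5 lower in endothelium than in the rest, against 13.2% and 21.3% of all genes (median -0.13, against -0.18 over all genes). In the Trap libraries alone 3 were higher and 25 lower, against 16.1% and 32.5% of all genes (median -0.72, against -0.21). Gins1, Rpa3 and Rrm2 lay above the rest in the controls (0.37, 0.12 and 0.27) without passing, and below it with Trap (-2.10, -1.45 and -1.67). Pcna was higher in endothelium in controls (0.56) and not with Trap (-0.09). The difference between the treatments is the difference of Trap changes tested above, where Gins1 and Rrm2 alone passed. The counts also rest on 4 Trap and 2 control libraries in each population.

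CD146 mesenchyme had 1 member higher (Pold2, 0.93 ± 0.18) and 5 lower than the rest, against 18.2% and 25% of all genes. Among the 5, Rpa3 (-0.94 ± 0.24), Rrm2 (-0.93 ± 0.20), Rfc3 (-0.64 ± 0.26) and Gins4 (-0.48 ± 0.18) differed most. Rescaled to TPM the counts were 3 higher and 2 lower, and scaled by upper quartile 2 and 4. In the Trap libraries alone 1 was higher and 9 lower, against 15.9% and 21.1% of all genes, and in the controls alone 1 and 1, against 10.7% and 14.5%. The count of 6 was 10 without CD146 control 1, and 3 without control 2 or Trap 3.

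CD140a mesenchyme had 5 higher and 7 lower, against 17.1% and 33% of all genes, with Pold2 (0.99 ± 0.18), Chaf1a (0.50 ± 0.16), Rfc1 (0.49 ± 0.12) and Rrm1 (0.47 ± 0.18) higher, and Rrm2 (-1.09 ± 0.20), Uhrf1 (-0.91 ± 0.18), Mcm7 (-0.73 ± 0.16) and Rfc4 (-0.63 ± 0.24) lower. The balance turned with treatment: in the Trap libraries alone 9 were higher and 4 lower, against 15.7% and 28.2% of all genes (median 0.05), and in the controls alone 1 and 6, against 11.4% and 20.4% (median -0.22). The levels of the other populations enter both comparisons, and the difference between the treatments was not tested. The counts were 5 higher and 4 lower in TPM, and 8 and 4 both scaled by upper quartile and after quantile normalization.

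In CD140a against CD146 mesenchyme, 2 members were higher and 3 lower, against 13.5% and 17.7% of all genes. Rpa3 (1.07 ± 0.30) and Rpa2 (0.61 ± 0.22) were higher in CD140a mesenchyme. Rpa1, the large subunit of the same trimer, was lower there (-0.69 ± 0.22), as were Mcm7 (-0.80 ± 0.20) and Pcna (-0.33 ± 0.11). The counts were not alike in the 2 treatments. In the Trap libraries alone 7 were higher and 0 lower, against 11.4% and 14.9% of all genes. There 11 of 43 lay below 0, with a median of 0.21, against -0.04 over all genes. In the controls alone 0 were higher and 2 lower, both below the shares of all genes (7.06% and 9.16%). There 27 lay below 0, with a median of -0.19, against -0.03 over all genes. The difference between the treatments was not tested. The counts were 1 higher and 3 lower in TPM, 3 and 2 scaled by upper quartile and 3 and 3 after quantile normalization. Without CD140a control 1 the count of 5 was 2, and without endothelial Trap 2 it was 9.

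The genes that carried most of these results lie apart in the genome (GRCm38, GENCODE M21). Gins1 spans chromosome 2 from 150905400 to 150931280 on the plus strand, Rrm2 chromosome 12 from 24708241 to 24714146 on the plus strand and Mcm3 chromosome 1 from 20802968 to 20820312 on the minus strand. Rpa3 spans chromosome 6 from 8255936 to 8259173 and Pcna chromosome 2 from 132249162 to 132253314, both on the minus strand. None of these 5 shares exon bases with another annotated gene.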

How the data were processed

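RNA was extracted from cells of 5 sorted populations, amplified as cDNA, and sequenced as paired ends, per the labels' protocols. The authors deposited 1 table of FPKM values per gene and library, per the file headers; bcl2fastq 2.17, STAR, DESeq2 and the build GRCm38 (mm10) are named in the submitters' processing notes, with the annotation, counter and strandedness not given in the sources used here. No read counts were analysed, so the depth per library is unknown and intervals for counting error cannot be given. FPKM sums per library ran from 184608 to 241993.

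The filter kept the 16425 of 18847 genes with 1 FPKM or more in 2 or more libraries. Values were taken as log2(FPKM + 1), with a pseudocount of 1, and fitted in limma 3.58.1 (R 4.3.3) with 1 mean for each of 10 groups over all 30 libraries and a trend in the variance. Tests are two-sided. P-values were adjusted by Benjamini and Hochberg over all genes tested, and genes with an adjusted p under 0.05 were called. Errors beside a log2 difference are standard errors of the fit, and those beside FPKM are SDs. Comparisons of populations weight Trap and control means equally. The procedure was tested on simulated data with 1 spread per gene for all libraries, so an unequal spread between populations was not covered.

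All 43 replication genes could be named. Values in every library were given for those called in a population or, where none was, for the 3 of smallest p. The 4 of largest difference in each direction were named between populations, and from the other lists up to 4 of smallest p. The members and lists were chosen with earlier results of these data known. Alternatives were other pseudocounts, filters and scalings, 1 variance weight per population, no variance trend, the replicate number as a block, a population's 6 libraries alone, 1 treatment alone and each library left out. Identifiers were matched to GENCODE M21 on GRCm38 (18836 of 18847, with 43 of 43 members), and promoters were taken from RefSeq. One further gene list is not reported here.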

Additional observations from a re-analysis of the deposited data

Results flagged for a closer look

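In endothelium with Trap, library 4 stood apart for Mcm4 at 3.12 FPKM, against 5.37 to 5.74 FPKM in the other 3 Trap libraries, and library 1 for Cdt1 at 2.69 FPKM, against 0.23 to 0.26 FPKM. In CD146 mesenchyme with Trap, library 2 stood apart in the median of the 43 genes, at 4.53 FPKM, against 3.26 to 3.45 FPKM. The gap of each of these libraries to its nearest neighbour, over the range of its 4 libraries, passed the critical value of Dixon for 4 values. Chance gives such a gap in about 1 of 20 groups, and 3 of the 28 groups examined had one. The Trap change differed between endothelium and the mean of the other 4 populations for Gins1, by -2.47, and for Rrm2, by -1.94 on the log2 scale (limma adjusted p = 0.0145 and 0.0283).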

How the results depend on the processing

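Counts below are of members called. Trap in endothelium gave 8 after quantile normalization, and 0 with 1 weight per population or in its 6 libraries alone; in its 6 libraries alone CD146 mesenchyme also gave 0. The endothelial difference from the other populations gave 1 after quantile normalization and 0 with weights. The mean Trap change gave 3 in TPM and 3 without a variance trend. Between populations, mTEC gave 14 in TPM and 14 by upper quartile, and epithelium against mesenchyme 12 in TPM, 13 by upper quartile and 13 by quantile; with weights cTEC gave 16 and CD140a against CD146 gave 8. In control libraries alone the counts were 10 (endothelium), 2 (CD146), 7 (CD140a), 0 (cTEC, 3 at an unadjusted p under 0.05 in limma), 8 (mTEC), 1 (cTEC against mTEC), 2 (CD140a against CD146, both lower) and 10 (epithelium against mesenchyme), and in Trap libraries alone CD146 gave 10. These 1-treatment comparisons use the group means of 1 treatment from the same fit of all 30 libraries. The cause of the shifts was not tested. Leaving out each library gave 2 to 15 for Trap in endothelium, 0 to 1 in CD146 mesenchyme, 0 in the other 3 populations, 1 to 3 for the endothelial difference and 3 to 6 for the mean Trap change. It gave 20 to 27 for endothelium, 3 to 10 for CD146, 8 to 15 for CD140a, 4 to 11 for cTEC, 13 to 24 for mTEC, 3 to 8 for cTEC against mTEC, 2 to 9 for CD140a against CD146 and 15 to 22 for epithelium against mesenchyme. Same-numbered libraries of different populations showed little shared deviation (median correlation 0.0247, from -0.0496 to 0.102 over 60 pairs). For different numbers the median was -0.00836 over 140 pairs. The numbers were therefore not used as pairs, but such correlations cannot exclude shared animals or days. With the replicate number as a block, Trap gave 11 in endothelium, 0 in CD146 mesenchyme (11 at an unadjusted p under 0.05), 1 for the endothelial difference and 0 for the mean Trap change (18 at an unadjusted p under 0.05). The 126 member calls were each repeated with every library left out and under each other setting. With a library left out, 3459 repeats kept direction and threshold, 321 lost the threshold and 0 reversed; under the other settings these were 1207, 264 and 6. The 6 were Chaf1a in mTEC after quantile normalization (-0.0255), Gins1 (0.37), Rpa3 (0.12) and Rrm2 (0.27) in endothelium and Mcm3 in CD146 mesenchyme (0.11) in control libraries alone, and Pcna in endothelium in Trap libraries alone (-0.0865). The median Trap difference in endothelium lay between -1.03 (pseudocount 0.1) and -0.58. The values of low genes depend on the pseudocount, and depth, unknown here, limits them.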

Other observations

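Of 22 mitosis genes, 18 were higher in mTEC than in the mean of the other 4 populations and 0 lower, with a median of 0.90, against 38.4% and 17.5% of all genes. In endothelium 0 were higher and 17 lower, with a median of -1.11, against 17.7% and 34.5% of all genes. Trap and control libraries are weighted equally here, and some of the mitosis genes fell with Trap in endothelium. For these further lists the comparisons were not split by treatment or repeated under other scalings. Of 18 genes of E2F factors and S phase entry, 5 were higher and 2 lower in mTEC, and 2 were higher and 6 lower in endothelium. Neither the share higher in mTEC nor the share lower in endothelium was above that of all genes.

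Averaged over the 5 populations, 4 of 39 further replication genes fell with Trap, against 0.292% of all genes. They were Nasp (-0.37 ± 0.06), Dnmt1 (-0.56 ± 0.10), Wdhd1 (-0.61 ± 0.13), a replisome scaffold gene, and Clspn (-0.64 ± 0.15). Of the mitosis genes Kif11 (-0.74 ± 0.11), Cenpe (-0.84 ± 0.16) and Tpx2 (-0.77 ± 0.18) fell. The Trap difference was lower in endothelium than in the mean of the other 4 populations for E2f2 (-1.74 ± 0.34, limma adjusted p = 0.0208) and Kif11 (-1.86 ± 0.27, limma adjusted p = 0.00215). Of all genes, 0.231% were lower in that comparison.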
